A study of Homo sapiens with 16 samples.

Results

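TENM1 encodes teneurin-1, a large transmembrane protein of the teneurin family, and held 45 of the 13398 pseudouridine sites listed in the pre-mRNA map of HEK293T cells, the most of any gene. The members were chosen by gene symbol alone, and the gene was picked for its number of sites, so that number is a description and was not tested. All 45 sites carry 1 Ensembl identifier, ENSG00000009694, and lie within the RefSeq span of the gene, chrX:124375903-125204312 on the minus strand of hg38.

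The study mapped pseudouridine with PRAISE-seq. Treatment of the RNA with bisulfite leaves an adduct on pseudouridine that reverse transcriptase tends to skip, so some reads over a modified base lack it. There are 16 libraries of rRNA-depleted total RNA: 3 treated libraries and 3 without bisulfite in their titles from HEK293T cells lacking the pseudouridine synthases PUS1, PUS7 and RPUSD4, 2 treated and 2 nontreated control libraries of HEK293T, and 3 treated and 3 input libraries of the HuCCT1 cholangiocarcinoma line. HEK293T is a transformed line derived from embryonic kidney. Whether the knockout cells came from 1 clone, and whether libraries of a group came from separate cultures, is not stated by the labels. The table analysed gives each site 1 deletion level, 1 coverage and an 11-nt context, with no value per library. Levels therefore carry no replicate error, and no comparison of knockout and control cells could be made. Which libraries the values come from, control or knockout, treated or not, is not stated. The table holds no expression values either, so the cell line was not set against marker genes. The read totals of the libraries were not analysed here.

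Pseudouridine is an isomer of uridine that pseudouridine synthases make within RNA chains, many of them at preferred sequences or structures. Teneurins are cell-surface proteins best known from the nervous system, where they bind latrophilins and other teneurins and help neurons find their partners. TENM1 is a very long gene whose RNA is nearly all intron before splicing.

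The sequences below are those on which the account of the gene turns, each printed 5′ to 3′ on its own strand with the listed uridine (base 6 of 11) as a capital T. The first 6 are the sites of highest level, shown because they set the upper range.
Intron, position 125134488, plus strand: ttctcTagtct
Intron, position 124612237, minus strand: acataTgtatg
Intron, position 125033542, minus strand: ttttcTactct
Intron, position 124596859, minus strand: ctataTtatat
Intron, position 124727890, minus strand: gaaccTttctg
Intron, position 124920935, plus strand: tttttTccttt
The next 5 are all the sites outside introns, all of them on the minus strand.
Promoter, position 124963692: ggatcTagctt
Exon, position 124520577: acacaTttgct
Exon, position 124520576: cacatTtgctt
3'UTR, position 124377144: ttttcTttttt
3'UTR, position 124376026: atgcaTttttc
The last 4, all intronic and on the minus strand, are those with 13 deletion reads each and an adjacent pair.
Intron, position 125088910: agctaTgattt
Intron, position 124845919: aaagcTtttat
Intron, position 125115569: tgtggTttttg
Intron, position 125115568: gtggtTtttgc

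The sites ran along almost the whole gene. Positions are given here from the upstream of 2 RefSeq transcription starts, at 125204312, toward lower coordinates, since the gene lies on the minus strand. The most upstream site stood 54.0 kb after that start, in an intron, at 5.6% (4 of 71 reads, 95% Clopper-Pearson interval 1.56 to 13.8%). The most downstream stood 123 nt before the annotated end of the gene, in the 3'UTR, at 16.7% (7 of 42 reads, interval 6.97 to 31.4%). In successive stretches of 25% of the span, from 5′ to 3′, the sites numbered 16, 13, 6 and 10. Every stretch of 10% held at least 1 site, with the most in the second (10) and the fifth (9) and the fewest in the sixth (1).

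**Figure D1:**
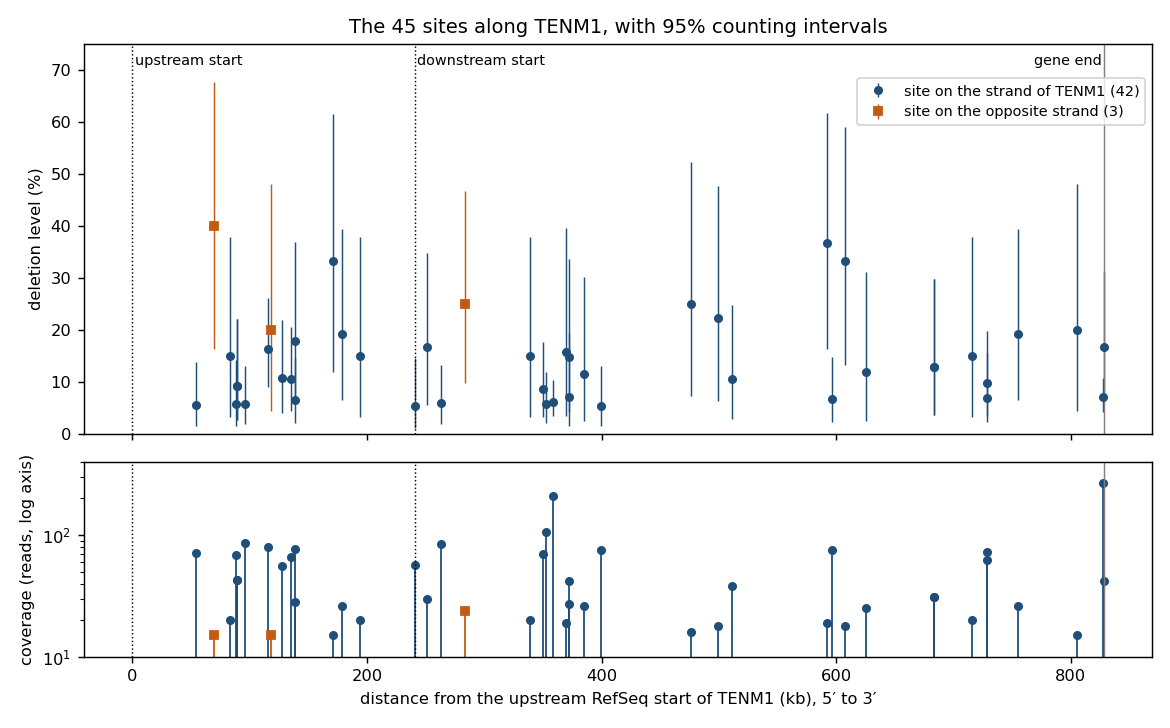
Deletion level in percent (upper panel, bars are 95% Clopper-Pearson intervals for counting error) and coverage in reads on a log axis (lower panel) of the 45 TENM1 sites, by distance in kb from the upstream RefSeq start. The 42 sites on the strand of the gene and the 3 on the opposite strand are spread from 54.0 kb to the end of the gene, with no site in the first 50 kb.

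The downstream RefSeq start lies at 124963817, 240 kb into the gene, and divides the sites. The segment between the starts, which transcripts from the downstream start leave out, held 16 sites, or 6.65 per 100 kb (exact Poisson interval 3.80 to 10.8). The rest of the gene held 29, or 4.93 per 100 kb (interval 3.30 to 7.08), and the intervals overlap. The median level was 12.85% between the starts and 12.9% after the downstream start, and the median coverage was 43 and 31 reads. The single site annotated as promoter lay 125 nt after the downstream start, at 5.3% (3 of 57 reads, interval 1.10 to 14.6%).

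Neighbouring sites were usually many kilobases apart. Over the 44 gaps the median was 11.4 kb (binomial interval of the median 7.77 to 15.3 kb) and the mean 17.6 kb. The widest gap, 81.3 kb, ran between the intronic sites at 124693523 and 124612237, and 5 gaps exceeded 50 kb. Only 6 gaps were under 1 kb. The closest group of 3 spanned 656 nt in an intron 88 kb from the upstream start, with 5.8% at 125116224 (4 of 69 reads) and 9.3% at each of the adjacent bases 125115569 and 125115568 (4 of 43 reads).

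That adjacent pair and the exonic pair at 124520577 and 124520576 had the same level and coverage at both bases. Each exonic base had 12.9% (4 of 31 reads, interval 3.63 to 29.8%). Both pairs lie within a run of uridines, as the printed contexts show, where a deletion cannot be assigned to 1 base. Equal values at adjacent bases were common in the map: 420 of its 771 adjacent pairs (54.5%) shared level and coverage. Counting sites within 10 nt as 1 left 43 in TENM1.

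Of the 45 sites, 42 (93.3%, interval 81.7 to 98.6%) were on the strand of the gene. Of the 8717 sites of coding genes whose strand RefSeq gives, 94.2% were. In introns it was 37 of 40 in TENM1 (92.5%) and 95.9% of the 4883 coding sites. The 3 sites on the opposite strand were intronic and covered by 15, 15 and 24 reads, at 40% (6 deletion reads, interval 16.3 to 67.7%), 20% (3 deletion reads) and 25% (6 deletion reads). The one at 40% had the highest level of the 45 sites, but on the strand opposite to the TENM1 transcript. On the strand of the gene the levels ran from 5.3% through a median of 11.75% to 36.8%, at 15 to 270 reads with a median of 40. None of the 45 sites lay inside any of the other 3 RefSeq genes within the span, a long non-coding RNA, a pseudogene of a ribosomal protein and a small nucleolar RNA.

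The table lists 3 more sites within the span under other symbols, which are not among the 45. One of them, assigned to the promoter of the pseudogene ENSG00000232599, lay on the minus strand 81 nt after the upstream start of TENM1, at 27.8% (5 of 18 reads, interval 9.69 to 53.5%). The other two were on the plus strand, under SH2D1A at 6.4% (3 of 47 reads) and under the pseudogene RPS26P57 at 6.1% (3 of 49 reads).

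By region, 40 sites were intronic (88.9%, interval 75.9 to 96.3%), 2 exonic, 2 in the 3'UTR and 1 in a promoter. The corresponding intronic share of the whole map was 50.9%. The deepest of the 45 was the 3'UTR site at 124377144, with 19 deletion reads among 270 (7%, interval 4.29 to 10.8%). Distances to splice junctions were not analysed here, for want of an exon annotation.

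Levels in TENM1 ran from 5.3% to 40%, with a median of 12.9% (binomial interval of the median 9.3 to 15.8%) and quartiles of 7% and 17.9%. The whole map had a median of 12%. The 40 intronic sites of TENM1 had 13.4%, and the intronic sites of the map 14%. Single levels rested on few reads. Deletion reads numbered 3, 4 or 5 at 32 sites, 6 or 7 at 10 sites, and 13, 13 and 19 at the other 3. The median width of a site's interval was 26.2 percentage points. Summed over the gene, 235 of 2297 reads had the deletion, or 10.2%, and the intervals of 41 of the 45 sites held that value. The other 4 were above it, and no interval lay below. The sum was taken from these same sites, with both bases of each adjacent pair counted. A listed site has at least 3 deletion reads and 5%, which keeps intervals at low coverage from lying below that value. The count is therefore no test of a shared level.

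Those 4 were the sites of highest level, all covered by fewer than 20 reads. The plus-strand site at 125134488 had 40%. The site at 124612237 followed with 36.8% (7 of 19 reads, interval 16.3 to 61.6%). The sites at 125033542 and 124596859 each had 33.3%, from 5 of 15 reads (interval 11.8 to 61.6%) and 6 of 18 reads (interval 13.3 to 59.0%). The next, both at 25%, were the intronic sites at 124727890 (4 of 16 reads) and, on the plus strand, 124920935 (6 of 24 reads). Their contexts, printed above, as listed held none of the motifs searched except at 125134488.

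Among well-covered sites 1 intronic uridine was higher than the rest. The site at 125088910, 115 kb from the upstream start, had 16.3% (13 of 80 reads, interval 8.95 to 26.2%). The other 14 sites with coverage of at least 60 ran from 5.3% to 10.6%, and the upper end of these was the site at 125068719 (7 of 66 reads, interval 4.37 to 20.6%), so the intervals overlap. Of the 762 intronic sites of the map at that coverage, 58 (7.61%) had a level of at least 16.3%. The sites of deepest coverage after the 3'UTR site were intronic and low. They were 124845919 with 6.2% (13 of 208 reads, interval 3.37 to 10.5%), 124852070 with 5.7% (6 of 106 reads), 125108299 with 5.8% (5 of 86 reads) and 124941186 with 5.9% (5 of 85 reads). The authors' deposited table gives 44 of the 45 sites a p-value of 0, and the exception was 124845919, with a p-value of 2.123e-09 and an FDR of 6.174e-07. Which test gave these values is not stated.

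The lowest level that a listed site could have depended on its coverage. The table holds no site under 5%, under 15 reads or under 3 deletion reads, and a site with 15 reads therefore needed a level of at least 20%. Across the 45 sites, which are not independent replicates, Spearman's rho between level and coverage was -0.851, and across the whole map -0.752. How far the limits of listing account for these values was not tested. In TENM1 the median level was 19.2% at the 20 sites with 15 to 29 reads, 10.6% at the 10 sites with 30 to 59 reads, and 6.5% at the 15 sites with at least 60. Intronic sites of the map had medians of 18.8%, 9.5% and 6.7% in the same bands. Whether the medians of a band differ was not tested. Neither level nor coverage rose or fell steadily along the gene. Across the 45 sites rho between level and distance along the gene was 0.125, and between coverage and distance -0.0833. In successive stretches of 25% of the span, from the upstream end, the median level was 12.85%, 8.6%, 23.6% and 12.9%. The median coverage was 43, 42, 18.5 and 31 reads. The stretch with the highest level and lowest coverage held only 6 sites. Differences between stretches were not tested, and levels were not adjusted for coverage.

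**Figure D2:**
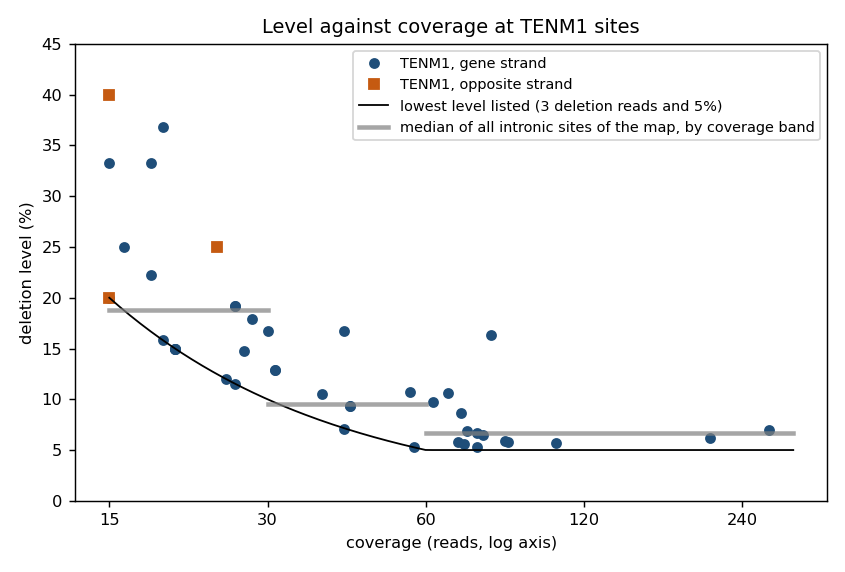
Deletion level in percent against coverage in reads (log axis) for the 45 TENM1 sites, with the lowest level the table lists at each coverage (black line) and the median of all intronic sites of the map in 3 coverage bands (grey bars, 18.8%, 9.5% and 6.7%). Most TENM1 sites lie on or a little above the floor, and the 4 highest all have fewer than 20 reads.

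Coverage in TENM1 was spread widely, from 15 to 270 reads with a median of 31 and quartiles of 20 and 70. Among intronic sites, 14 of 40 in TENM1 had at least 60 reads (35%, interval 20.6 to 51.7%), against 762 of 6826 in the map (11.2%). The medians did not show this, at 29 reads for both. Sites close together could differ in depth: the pair 352 nt apart at 125065911 and 125065559 had 77 and 28 reads, with 6.5% (5 deletion reads) and 17.9% (5 deletion reads).

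TENM1 was then set beside every other gene with at least 10 sites and a RefSeq span of at least 200 kb, which gave 22 genes with 301 sites. No test was made between genes, since sites of 1 gene share a transcript and are not replicates. DNAH14, a dynein heavy chain gene, came next with 24 sites, followed by SLIT2, which encodes an axon guidance ligand, with 18. RAD51B, a recombination gene, and the non-coding gene MIR924HG had 17 each. ROBO1, which encodes a receptor of SLIT2, had 15.

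Per length of gene TENM1 was not first. The count that chose the gene enters its density, so the densities are descriptions. TENM1 had 5.43 sites per 100 kb (exact Poisson interval 3.96 to 7.27), and TBC1D32, a gene of primary cilia, had 5.49 (interval 2.999 to 9.20). DNAH14 had 5.11 (interval 3.27 to 7.60) and SLIT2 4.88 (interval 2.89 to 7.72). Among genes of similar length TENM1 stood higher: RAD51B (863 kb) had 1.97 per 100 kb (interval 1.15 to 3.15), RABGAP1L (836 kb) 1.91, PCDH11X (844 kb), also on chromosome X, 1.54, and EXOC4 (848 kb) 1.42. The 22 genes ran from 0.920 in AUTS2 to 5.49 with a median of 3.14.

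**Figure D3:**
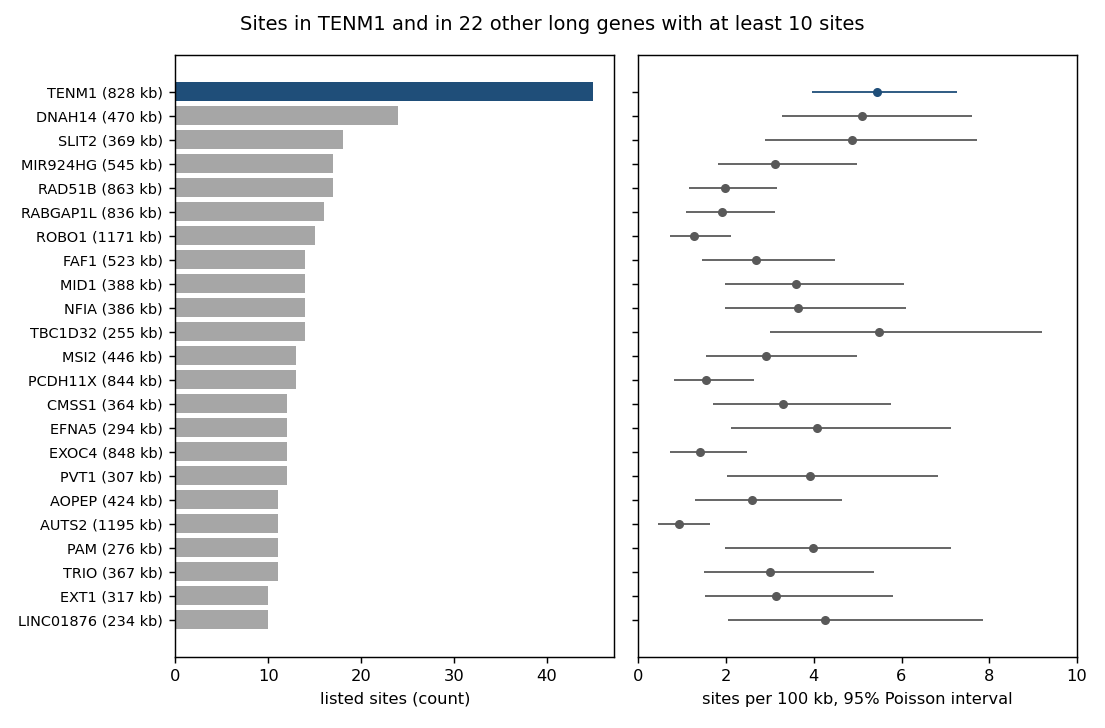
Number of listed sites (left) and sites per 100 kb of RefSeq span with 95% Poisson intervals (right) in TENM1, at the top, and in 22 other genes with at least 10 sites and 200 kb. TENM1 has the longest bar with 45 sites, while its density of 5.43 lies beside those of TBC1D32, DNAH14 and SLIT2.

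Having any site was far from general among genes of this size. Of 365 RefSeq genes spanning at least 500 kb, 127 (34.8%) had a site. Of the 64 other genes within 10% of the span of TENM1, 39 had none, and the most was 17, in RAD51B. The other teneurin genes, of similar or greater length, were almost empty: TENM2 (1285 kb) and TENM4 (788 kb) had no listed site, and TENM3 (1355 kb) had 1, in an exon, at 20.6% (7 of 34 reads, interval 8.70 to 37.9%). Listing needs coverage, and the expression of these genes was not measured here, so a gene without a site may only have had too few reads. On chromosome X, TENM1 held 45 of 517 sites (8.70%), and MID1, a ubiquitin ligase gene, was next with 14.

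Positions were compared in the same way. In successive stretches of 25% of the span, from 5′ to 3′, TENM1 had 35.6%, 28.9%, 13.3% and 22.2% of its sites, and the 19 genes with a known strand had 37.5%, 29.9%, 14.0% and 18.6% of their 264. Of the 19 genes, 13 had a site in every stretch, as TENM1 did. Single genes could be more lopsided. In DNAH14 all 24 sites lay in the first 50% of the span, 17 of them in its first 25%. SLIT2 had 10, 6, 1 and 1 sites in successive stretches of 25% from 5′ to 3′, and RAD51B 11, 2, 2 and 2. ROBO1 ran the other way, with 0, 0, 5 and 10, and so did MID1, with 0, 0, 5 and 9. The widest gap took 9.81% of the span in TENM1, and in the 22 genes it took from 8.03% (DNAH14) to 52.9% (EFNA5) with a median of 25.9%. A gene with more sites has smaller gaps for that reason alone. The median gap over the mean gap, which does not depend on the number of sites in that way, was 0.649 in TENM1 and from 0.286 to 1.13 in the others, with 6 genes above TENM1.

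**Figure D4:**
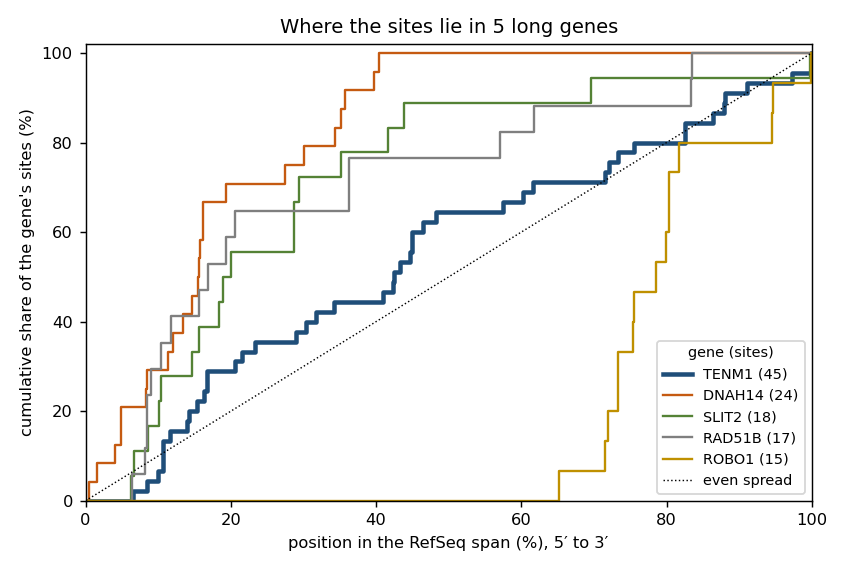
Cumulative share of each gene's sites in percent against position in its RefSeq span in percent, 5′ to 3′, for TENM1 and 4 other genes. The TENM1 line rises along most of the span, while DNAH14 is complete before the middle, and ROBO1 starts after it.

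In median level, median coverage, intronic share, strand and the share of sites with 3 deletion reads TENM1 lay inside the range of the 22 genes. Its median level was 12.9%, and theirs ran from 9.1% to 23.8%, with 10 genes above it. Its median coverage was 31 reads, and theirs ran from 21 to 48, with 15 genes above it. Its intronic share was 88.9%, and theirs ran from 72.7% to 100%, with 16 genes above it. The sites of TENM1 on the gene strand were 42 of 45. Of the 19 genes with a strand in RefSeq's promoter table, 12 had every site on the gene strand, and over all 19 it was 257 of 269 sites (95.5%). Sites with exactly 3 deletion reads made up 24.4% in TENM1 and from 7.14% to 62.5% in the others. At coverage of at least 60, TENM1 had 15 of its 45 sites (33.3%). The 22 genes had 39 of 301 there (13.0%), with at most 4 in a gene, and their shares ran from 0% to 33.3%, the upper end in EFNA5 (4 of 12). The deepest site had 270 reads in TENM1 and at most 143 in the 22 genes, and the most deletion reads at a site were 19 and at most 11. Both maxima of TENM1 were of its 3'UTR site at 124377144. A gene with more sites also tends to have higher maxima for that reason alone.

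The contexts of TENM1 were A- and T-rich. Bases A and T made up 65.6% ± 12.9 (SD, n = 45 contexts) of the 10 flanking positions, against 62.1% in the 22 genes. At the 37 minus-strand intronic sites of TENM1 they made up 65.4% ± 13.0, against 60.1% ± 17.0 (SD) at the 3242 minus-strand intronic sites of the map. Pyrimidines made up 54.3% ± 21.7 of the flanks at those 37 sites, against 55.9% ± 23.0 (SD) at the minus-strand intronic sites of the map, and 58% ± 22.3 at all 45. These differences were not tested. At the 37 minus-strand intronic sites the base before the listed uridine was C at 16, A at 12, G at 8 and T at 1, and the base after it was T at 19, A at 9, C at 5 and G at 4. Before the uridine, C stood at 43.2% of these TENM1 sites (interval 27.1 to 60.5%), against 39.3% of the map's minus-strand intronic sites. There A stood at 32.4% against 28.5%, G at 21.6% against 25.5% and T at 2.70% against 6.63%. After the uridine, A stood at 24.3% (interval 11.8 to 41.2%) against 14.5%, and T at 51.4% against 58.1%. There C stood at 13.5% against 12.2%, and G at 10.8% against 15.1%. None of these differences was tested.

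Most sites lay in runs of uridines, and the listed base was mostly at 1 end of the run. In TENM1 25 of 45 sites (55.6%) had a uridine next to them, against 58.7% in the map, and 5 lay in a run of at least 6 within the window. On the minus strand 21 of 23 such sites were listed at the 5′ end of the run, and on the plus strand 2 of 2 at the 3′ end. Both ends are the highest genomic coordinate of the run. Over the map the shares were 85.5% of 3792 minus-strand sites and 87.2% of 4072 plus-strand sites. The listed base within a run therefore follows the genome's coordinates, and the modified uridine may be any of the run.

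Sequences preferred by known synthases were rare in the map and in TENM1. They were searched on the listed strand only, in exclusive classes taken in the order given: UNUAA or UNUAG with a purine as N (PUS7 and PUS1), UNUAA or UNUAG with a pyrimidine as N (PUS7), A or C followed by a purine and then by UAA or UAG (PUS1), GUUCNA (TRUB1), and uridine at all 5 positions around the site. In each the third base is the listed uridine. TENM1 had 2 sites of the PUS7 class and none of the others, while the map had 1.63%, 3.09%, 2.33%, 0.746% and 0.231% of its sites in the 5 classes. Classes this rare would give few or no matches among 45 sites, and a difference from the map was not tested. The 2 were the plus-strand site at 125134488 (ttctcTagtct, 40%) and the promoter site at 124963692 (ggatcTagctt, 5.3%, 3 of 57 reads). They share the 5 bases from 2 before to 2 after the listed uridine, and only the promoter site is on the strand of the gene. When each searchable uridine of a run was allowed to be the site, the PUS7 class stayed at 2 sites, against 5.48% of the map. Another 8 of the 45 fell in the class of uridine on both sides, against 9.66% of the map. With any class it was 10 of 45, against 20.7% of the map. These differences were not tested. A run of at least 5 uridines at the site falls in the class of uridine on both sides unless an earlier class matches. No synthase is named here for that class. Uridines near an end of the 11-nt context were not searched, since a motif there would run past it. A match describes these letters only, and no knockout value was analysed here.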

How the data were processed

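The file analysed lists sites of the HEK293T map on hg38, the build given in the submitters' processing notes. Neither labels nor headers give the aligner, the caller of deletions, the filters or the pooling of libraries. The authors deposited the level of each site as a fraction, printed here as a percent, and its coverage as a read count. The p-value and FDR are those of the authors' deposited table. Deletion reads were computed as the level times the coverage, which was whole within the rounding of the level (0.0005) at all 13398 sites. All intervals are 95%. Reads were not identified as single molecules, so the Clopper-Pearson intervals of levels cover the counting error of reads only. The Clopper-Pearson intervals of shares of sites, the Poisson intervals of densities and the order-statistic intervals of medians treat sites or gaps as independent. Sites of a gene share a transcript, and both bases of an adjacent pair were counted, so these intervals are descriptions.

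Samples were grouped by their titles, but no column belongs to a library, so no test was made. The members, the comparison genes (at least 10 sites and 200 kb, plus the other teneurins, SLIT2, ROBO1, DNAH14 and RAD51B) and the motif classes were chosen with earlier results of these data known. The limit of 500 kb, the window of 10% around the span of TENM1 and the coverage bands were also chosen with the data seen. Sites of TENM1 named are the 5 of highest level, coverage and deletion reads (with ties at the lowest place, not all repeated), those outside introns, the 2 end sites, groups of 3 within 2 kb, the closest pairs and those with a motif. Spans, starts and strands came from RefSeq tables of GRCh38.p14, in which TENM1 and all 22 comparison genes matched by symbol and 3 of the 22 had no strand. Of the sites of MIR924HG and EFNA5, 3 and 2 lie outside the RefSeq span and are in no stretch of 25%. Computation used Python 3.11.15, pandas 2.3.3, numpy 2.4.6 and scipy 1.17.1, and was tested on simulated data. Alternatives covered deletion reads, coverage, merging of close sites, region, strand and the uridine of a run.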

Additional observations from a re-analysis of the deposited data

How the results depend on the processing

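The number of TENM1 sites was 34 with at least 4 deletion reads, 43 with sites within 10 nt counted as 1, 40 in introns and 42 on the gene strand, and it dropped to 25 at coverage of at least 30. TENM1 had the most sites of any Ensembl gene in the table with at least 4 deletion reads, at coverage of at least 30 and after merging. At coverage of at least 60, added after seeing the data, it ranked 3, with 15 sites behind 23 in ENSG00000280441 of the ribosomal DNA of chromosome 21 and 21 at a 5.8S rRNA locus of chromosome 20, while the next coding gene, ENAH, had 6. The median level was 10.65% with at least 4 deletion reads, 13.4% in introns, 10.2% from summed reads and 7.1% at coverage of at least 30, where the lowest level that can be listed is lower. The density per 100 kb was 5.81 between the end sites and 4.10 with at least 4 deletion reads. Its rank among the long genes, an alternative added after seeing the data, was 2, and 4 at coverage of at least 30. Median spacing was 11.4 to 12.2 kb over the settings, and the intronic share 80% to 88.9%. Motif matches numbered 2 as listed and 10 with any searchable uridine of the run. The added 8 were all in the class of uridine on both sides, and the classes with a named synthase did not change. No paired analysis was possible because the table has no value per library.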

Other observations

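Some TENM1 contexts recur elsewhere in the map. Of the 45 sites, 6 (13.3%) had an 11-nt context listed at more than 1 site, against 12.4% of the map, and the 45 sites had 44 different contexts. The context ttttcTttttt was listed at 2 sites of TENM1, in the 3'UTR at 7% (19 of 270 reads) and in an intron at 7.1% (3 of 42 reads). Over the map it stood at 15 sites in 14 genes, all on the minus strand, at levels of 7% to 17.6%. The context tttttTccttt of the plus-strand site at 124920935 was listed at 10 sites in 10 genes, all on the plus strand, at 6.8% to 31.6%. Whether reads of 1 locus could be placed at another was not tested.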
